A study of Mus musculus with 4 samples.

Results

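Interferon-stimulated genes were examined in bronchoalveolar lavage fluid (BALF) cells of bleomycin-administered mice. The set held 46 member genes, listed by name as known targets of interferons and matched to array probes through the probes' accessions, and 43 of them had a probe among 20832 genes with one. Of these, 30 were genes of the kind induced by type I interferon (called type I-like here), 9 were GTPases best known as targets of interferon-gamma, and 4 encoded Ifitm membrane proteins. Mx1, Mx2 and Ifi205 were matched to no probe. A gene with several probes was represented by the brightest one, and the rule for members uses no measured difference.

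The arrays compared BALF cells, labelled as alveolar macrophages, of wild-type mice with those of S1pr2-/- mice, which lack the S1P2 receptor for sphingosine-1-phosphate (a lipid mediator). Both genotypes received bleomycin, a DNA-damaging drug that provokes lung injury and fibrosis, intraperitoneally at 0.035 U/g 2 times per week on a 4-week schedule, and cells were taken at day 22 from mice that entered at 8 to 10 weeks of age. The S1pr2-/- mice were germline knockouts on a mixed background that included C57BL/6J, the wild-type mice were their littermates, and no array of a mouse without bleomycin was part of the comparison. There were 2 arrays per genotype, each from a separate RNA sample, and whether an array pooled cells of several mice is not stated.

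Interferons are secreted proteins that cells release on sensing viral or damaged nucleic acid or, for interferon-gamma, that T and NK cells release on activation. Type I interferons act through the Ifnar receptor, the kinases Jak1 and Tyk2 and a complex that holds Stat2 and Irf9 and binds the interferon-stimulated response element (ISRE), whereas interferon-gamma acts through Ifngr on genes with a gamma-activated site (GAS) and induces Irf1. Alveolar macrophages respond to both, and the induced proteins block virus replication or, for the GTPases, attack vacuoles that hold bacteria or parasites.

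Values are processed signals on the log2 scale, each scaled to the 75th percentile of its array (2489 to 2817 intensity units), so that 0 marks that percentile and a difference of 1 is a doubling of signal, and they set no gene's level against another's. All 4 arrays lay on 1 slide and were scanned once, between 67.6% and 72.1% of probes on each were well above background, and precision is limited by having 4 arrays. In contrast to its label, the probe of the targeted gene S1pr2 read -0.13 and -0.16 in wild-type but 2.67 and 2.54 in the samples labelled S1pr2-/- (adjusted p = 0.336 in limma), so every direction given here is that of the labels. Whether this probe lies within the deleted part of the gene was not determined. Of the alveolar macrophage markers, 15 of 15 with a probe were well above background, and their summed level was 1153 and 1256 in wild-type against 1130 and 1235 on the others, so the groups overlapped. Eosinophil markers lay lower on both arrays labelled S1pr2-/- in 7 of 7 tested (21.9% of all genes). Their median difference was -4.52 on the log2 scale, from -5.58 for Gata1 to -0.79 for Ear6. The summed level, in which Ear6 as the brightest of them weighs most, was 6.34 and 15.7 against 2.38 and 3.73.

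All 43 measured interferon-stimulated genes were well above background on all 4 arrays, and most read lower on the arrays labelled S1pr2-/-. Both of those arrays lay below both wild-type arrays for 35 members (81.4%, against 21.9% of all 15412 genes tested), above both for Ly6e, Ifitm1 and Ifitm2 (22.2% of all genes), and overlapped them for Dhx58, Ifi204, Sp100, Ifitm3 and Ifitm6. The mean of the arrays labelled S1pr2-/- was the lower one for 37 of 43 members, as it was for 49.4% of all genes. The differences were small. Past 1.5-fold at any p there were 9 lower members (4% of all genes) and 0 higher ones (1.28%). The members' median was -0.36 on the log2 scale, a ratio of 0.778, and they ranged from -0.81 for Ifi44 to 0.55 for Ifitm1, beside a median of 0 over all genes. No member passed an adjusted p of 0.05 in limma, as did no gene of the whole table (0% of genes tested), and adjusted p ranged from 0.509 to 0.988 over the members. Without adjustment, limma gave a p under 0.05 for 17 members that were lower (39.5%, against 5.95% of all genes) and for 2 that were higher, Ifitm1 and Ifitm2 (4.55% of all genes). A change past 1.5-fold with an unadjusted p under 0.05 in limma was seen for 5 lower members, Isg15, Usp18, Oasl1, Rsad2 and Cmpk2 (11.6%, against 1.93% of all genes), and by 0 higher members (0.577% of all genes). With the methods' t-test in place of limma only Oasl1 was left, a count of 1. The count of 5 became 12 without wild-type replicate 1, 3 without wild-type replicate 2, 3 without replicate 1 labelled S1pr2-/- and 2 without replicate 2 of that label. The count of 35 members below both wild-type arrays was 27 with normexp background correction, which also brought the differences of Ifit1 to -0.29, Oas3 to -0.098, Cmpk2 to -0.31, Ifi44 to -0.10 and Iigp1 to -0.10. Members induced by the same signal share their source, so these counts describe 4 arrays and are not counts of independent events, and in a mixed sample fewer cells of a type and less RNA per cell cannot be told apart.

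**Figure D1:**
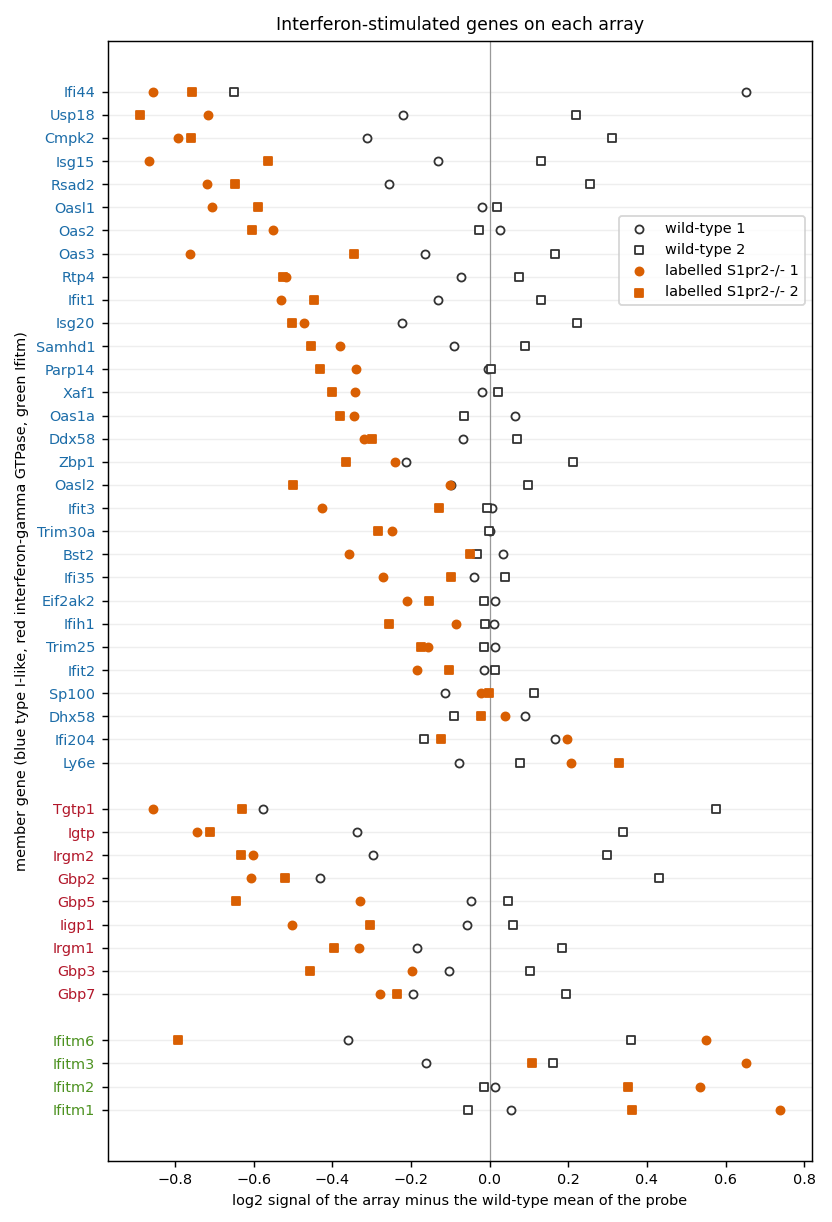
Log2 signal of each member's brightest probe on each array minus the probe's wild-type mean (horizontal axis), one row per gene, with open symbols for the 2 wild-type arrays and filled symbols for the 2 arrays labelled S1pr2-/-. For 35 of 43 members both filled symbols lie left of both open ones, and Ifitm1, Ifitm2 and Ly6e show the opposite order.

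Isg15 and Usp18 belong to an enzyme pathway in which the ubiquitin-like protein Isg15 is attached to other proteins and Usp18 removes it. Usp18 also blocks signalling from the Ifnar receptor. Isg15 read 2.74 and 2.996 in wild-type against 2.00 and 2.30 on the arrays labelled S1pr2-/-. Its arrays did not overlap, and the difference was -0.71 (SE 0.165, 0.609-fold, adjusted p = 0.509 in limma). Usp18 read 0.20 and 0.64 on the wild-type arrays against -0.30 and -0.47, with a difference of -0.80 (SE 0.192, 0.573-fold). Both genes were among the 5 named above, and a second probe of Isg15 gave -0.77.

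The oligoadenylate synthetases make a second messenger that activates an RNA-degrading enzyme, an activity that their relative Oasl1 lacks. All 5 genes of this family on the member list lay lower on both arrays labelled S1pr2-/-, by -0.30 for Oasl2 to -0.65 for Oasl1. Outside that list, Oas1c (difference 0.017, SE 0.059) and Oas1g (-0.25, SE 0.320) overlapped between the groups. Oasl1, which restrains translation of Irf7, read 1.99 and 2.03 in wild-type against 1.31 and 1.42 on the others. The gap between its groups was wider than the spread within either (difference -0.65, SE 0.072, 0.639-fold). Oas2 read 1.88 and 1.83 against 1.30 and 1.25 (difference -0.58, SE 0.061). It had the smallest unadjusted p among the members (adjusted p = 0.509 in limma) while its fold stayed just short of 1.5. Oas1a differed by -0.36 and Oas3 by -0.55, the latter with a wide interval (-1.20 to 0.10).

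Of the enzymes that act on nucleotides and RNA, Rsad2 (viperin) makes a chain-terminating nucleotide from CTP, and Cmpk2, encoded next to it, is a mitochondrial nucleotide kinase. Rsad2 read -0.82 and -0.31 in wild-type against -1.29 and -1.21 on the arrays labelled S1pr2-/- (difference -0.68, SE 0.209). Cmpk2 read -1.84 and -1.22 against -2.32 and -2.29 (difference -0.78, SE 0.249). In both genes the wild-type pair was farther apart than the other pair, with replicate 2 the higher, yet the groups did not overlap. Samhd1, which degrades the nucleotides needed for DNA synthesis, differed by -0.42 (SE 0.093), and the RNA exonuclease Isg20 by -0.49 (SE 0.182).

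Ifit proteins bind RNA whose 5′ end marks it as foreign. Ifit1 read -1.15 and -0.89 in wild-type against -1.55 and -1.47 on the arrays labelled S1pr2-/-, without overlap (difference -0.49, SE 0.120, 0.713-fold). Ifit2 differed by -0.14 (0.033 with normexp background correction) and Ifit3 by -0.28, and neither passed an unadjusted p of 0.05 in limma.

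The sensors of viral RNA showed smaller differences. Ddx58 (RIG-I), which recognises short RNA with a 5′ triphosphate, read 2.92 and 3.06 in wild-type against 2.67 and 2.69 on the others, a difference of -0.31 (SE 0.076). The long-RNA sensor Ifih1 (MDA5) differed by -0.17 and the kinase Eif2ak2 (PKR), which halts translation, by -0.18. Their relative Dhx58 (LGP2) overlapped between the groups, with a difference of 0.0092 (95% interval -0.27 to 0.29). Zbp1, a sensor of Z-form nucleic acid that can start necroptosis, read 1.86 and 2.28 against 1.83 and 1.71, so wild-type replicate 1 lay next to the higher of the other pair (difference -0.30, SE 0.181). Ifi204, a DNA-binding protein, overlapped between the groups (difference 0.04, 95% interval -0.53 to 0.61).

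The ADP-ribosyltransferase family member Parp14 read 3.11 and 3.12 in wild-type against 2.77 and 2.68 on the arrays labelled S1pr2-/-, a difference of -0.39 (SE 0.064). The ubiquitin ligase Trim25, which activates RIG-I signalling, differed by -0.16 and Trim30a by -0.27. The nuclear-body protein Sp100 overlapped (difference -0.01, 95% interval -0.32 to 0.30). Of the remaining induced proteins, Rtp4 differed by -0.52 (SE 0.079) and the pro-apoptotic Xaf1 by -0.37 (SE 0.060). Ifi35 differed by -0.18. Ifi44 had the largest difference of all members, -0.81, yet it rested on a single array. It read -2.34 and -3.64 in wild-type against -3.85 and -3.75 on the others, and without wild-type replicate 1 its difference was -0.16.

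Membrane proteins of the type I-like class did not move together. Bst2 (tetherin), which holds budding virus at the cell surface, differed by -0.20, and its arrays lay lower only narrowly. Ly6e, a lipid-anchored surface protein, read 4.64 and 4.80 in wild-type against 4.93 and 5.05 on the arrays labelled S1pr2-/-. Its groups did not overlap and it was the only type I-like member higher on both of those arrays (difference 0.27, SE 0.094).

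**Figure D2:**
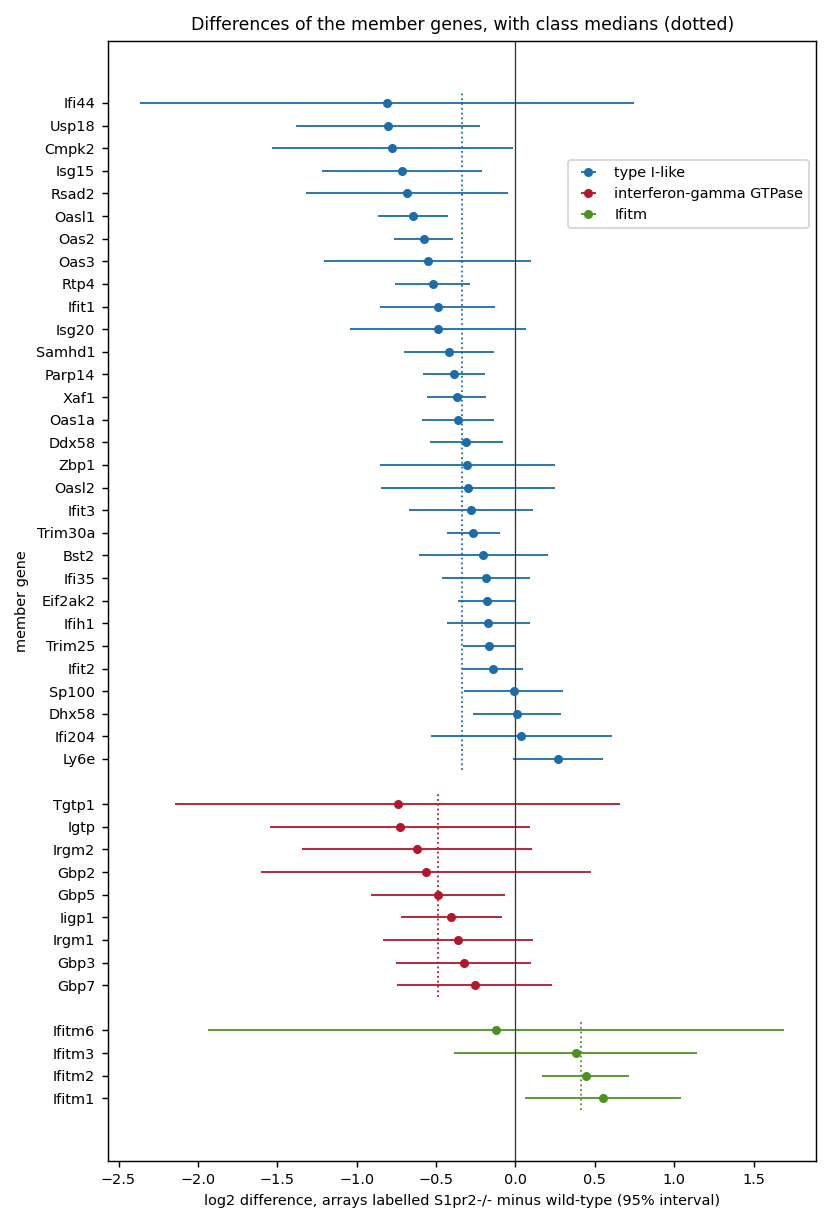
Log2 difference (arrays labelled S1pr2-/- minus wild-type, horizontal axis) of each member with its 95% interval from limma, by class, with the class medians as dotted lines at -0.34 (type I-like), -0.49 (interferon-gamma GTPases) and 0.41 (Ifitm). Most intervals of the GTPases include 0 although all 9 points lie below it.

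The interferon-gamma GTPases comprise the guanylate-binding proteins (Gbp), which coat and rupture pathogen vacuoles, and the smaller immunity-related GTPases (Iigp1, Igtp, Irgm1, Irgm2 and Tgtp1), of which the Irgm proteins and Igtp regulate the others. All 9 measured members lay lower on both arrays labelled S1pr2-/-, by -0.26 for Gbp7 to -0.74 for Tgtp1, although Tgtp1 was higher by 0.44 with normexp background correction, which moved the median of all probes to 0.19. Of the 9, Gbp5 and Iigp1 had an unadjusted p under 0.05 in limma. None of the 9 was past 1.5-fold with that p. Gbp5, which promotes inflammasome assembly, read 0.10 and 0.19 in wild-type against -0.18 and -0.50 on the others (difference -0.49, SE 0.139). Iigp1 read -1.88 and -1.76 against -2.32 and -2.12 (difference -0.40, SE 0.105). In these 2 genes the wild-type arrays lay close together.

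In most other GTPases they did not. Igtp (Irgm3) read 2.47 and 3.15 in wild-type against 2.07 and 2.10 on the arrays labelled S1pr2-/- (difference -0.73, SE 0.270). Irgm2 read 0.95 and 1.55 against 0.65 and 0.62 (difference -0.62, SE 0.239). Gbp2 read 1.97 and 2.83 against 1.79 and 1.88 (difference -0.56, SE 0.343). In each of these the wild-type replicates lay farther from each other than replicate 1 lay from the arrays labelled S1pr2-/-. Tgtp1, whose product acts on vacuoles with Iigp1, read -5.09 and -3.94 against -5.37 and -5.15 (difference -0.74, SE 0.461), with wild-type replicate 1 only just above the other pair. Gbp3 differed by -0.33, Gbp7 by -0.26 and Irgm1, which also controls autophagy, by -0.36.

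Set side by side, the median difference was -0.34 over the 30 type I-like genes and -0.49 over the 9 GTPases, so the GTPases were lower by a further 0.15. That gap was no larger than the disagreement between the wild-type arrays. Relative to the wild-type mean of each probe, the type I-like median was -0.03 and 0.03 on wild-type replicates 1 and 2, against -0.34 and -0.37 on the arrays labelled S1pr2-/-. The GTPase median was -0.19 and 0.19 in wild-type against -0.50 and -0.52 on the others. The arrays labelled S1pr2-/- thus stood at nearly one value in either class, and the classes differed in how the wild-type arrays read. Replicate 2 lay above replicate 1 for 9 of 9 GTPases, with a median gap of 0.39, and for 19 of 30 type I-like genes, with a median gap of 0.06, while 44.3% of all genes did so. A gap of at least 0.3 in that direction was seen for 6 of 9 GTPases and for 6 of 30 type I-like genes (8.87% of all genes). Without wild-type replicate 2, the GTPase median was -0.22 and the type I-like median -0.27, and the order of the classes turned (difference -0.05). Without wild-type replicate 1 the medians were -0.55 and -0.38. The GTPases were lower in 9 of 9 with each array left out, as must be so when the groups overlap for none of them. With normexp background correction 8 of 9 were lower.

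**Figure D3:**
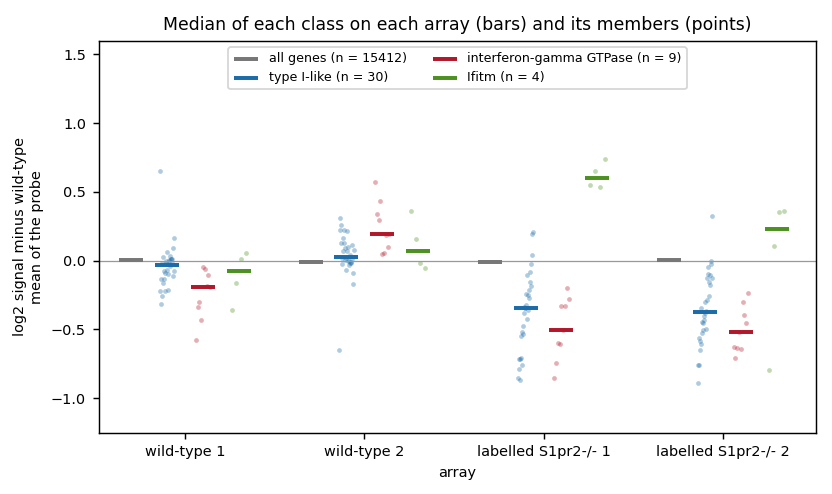
Log2 signal minus the probe's wild-type mean (vertical axis) on each of the 4 arrays, with a bar for the median of each class and of all 15412 genes and a point for each member. Wild-type replicate 2 carries the GTPases at 0.19 and replicate 1 at -0.19, mirror images because both are set against their own mean, while the type I-like medians are 0.03 and -0.03.

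**Figure D4:**
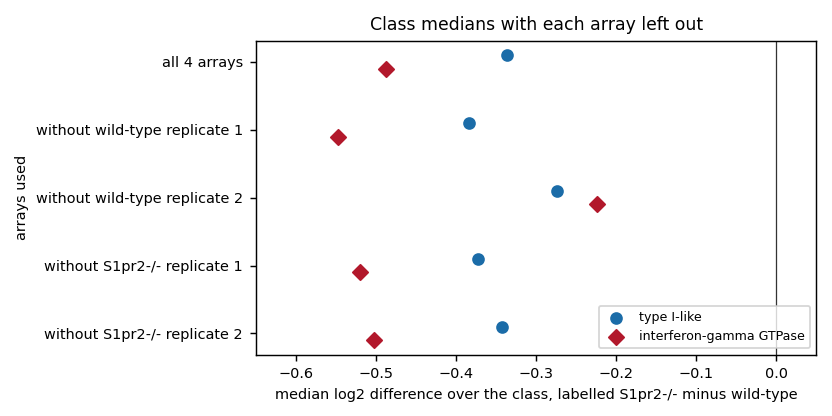
Median log2 difference (horizontal axis) of the type I-like genes (circles) and the interferon-gamma GTPases (diamonds) with all 4 arrays and with each array left out in turn. The GTPase median lies between -0.55 and -0.22 and the type I-like median between -0.38 and -0.27, and only without wild-type replicate 2 do the GTPases lie to the right.

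The Ifitm proteins, which stop viruses from fusing with cell membranes, went the other way or did not separate. Ifitm1 read 0.25 and 0.14 in wild-type against 0.94 and 0.56 on the arrays labelled S1pr2-/- (difference 0.55, SE 0.162, 1.46-fold). Ifitm2 read 1.35 and 1.32 against 1.87 and 1.68 (difference 0.44, SE 0.090, 1.36-fold). For both genes the groups did not overlap, and the adjusted p was 0.517 and 0.509 in limma. Ifitm3 read -0.27 and 0.06 against 0.55 and 0.00, so replicate 2 of the arrays labelled S1pr2-/- lay below wild-type replicate 2 (difference 0.38, SE 0.252). Ifitm6 read -5.05 and -4.33 against -4.14 and -5.48 and showed no separation (difference -0.12, SE 0.597). The Ifitm genes are near neighbours in sequence, so part of a probe's signal may come from a relative.

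Members with a second probe gave a lower mean on the arrays labelled S1pr2-/- with it too, but not the same size. The second probe gave smaller differences for Oas1a (-0.13), Ddx58 (-0.15) and Samhd1 (-0.23), and for Ifih1 the groups overlapped (-0.010). It gave -0.32 for Irgm1 and -0.44 for Isg20. Larger differences came from the second probes of Xaf1 (-0.54), Cmpk2 (-0.95), Zbp1 (-1.01) and Iigp1 (-1.21). The 95% intervals included 0 for Zbp1 (-2.16 to 0.14) and Iigp1 (-2.73 to 0.30). That Iigp1 probe was dim, at -5.50 and -4.44 in wild-type against -6.53 and -5.83.

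The promoters of members were searched for letters of the 2 elements named above. The classes are named for the inducing interferon and not for an element. An ISRE core was taken as GAAANNGAAA and a GAS as TTCNNNGAA, on either strand, in the 250 bases before each RefSeq gene start (assembly GRCm38.p6), and matches may overlap each other. A promoter was given for 34 of the 43 measured members. The ISRE core stood before 8 of 8 GTPase genes, 8 of 22 type I-like genes and 1 of 4 Ifitm genes, against 3.46% of 27025 genes with a promoter. The GAS letters stood before 5 of 8, 6 of 22 and 1 of 4, against 8.13% of all genes, and both before 5 of 8 and 2 of 22, against 0.459%. Isg15 and Ifit1 are shown as type I-like genes with several ISRE cores. Gbp2, Igtp, Irgm2 and Tgtp1 are shown as the GTPases with the largest gaps between the wild-type arrays. Ifitm2 is shown as a member that was higher on the arrays labelled S1pr2-/-. These GTPases and Ifitm2 were thus picked by their values. Irgm1 and Gbp7, with wild-type gaps of 0.37 and 0.39, are not shown. Irgm1 had no GAS, and in Gbp7 the ISRE core began at base -53 and the nearest GAS at -87. Each line gives the 120 bases before the start, 5′ to 3′ on the gene's strand, with matches to either motif in capitals.
Isg15, chr4:156200819-156200938, minus strand: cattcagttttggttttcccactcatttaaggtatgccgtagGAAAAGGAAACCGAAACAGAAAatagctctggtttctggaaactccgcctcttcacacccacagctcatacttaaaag
Ifit1, chr19:34640769-34640888, plus strand: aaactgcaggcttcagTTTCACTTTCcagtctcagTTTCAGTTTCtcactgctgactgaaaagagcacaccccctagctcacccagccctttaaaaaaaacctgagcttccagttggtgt
Gbp2, chr3:142620543-142620662, plus strand: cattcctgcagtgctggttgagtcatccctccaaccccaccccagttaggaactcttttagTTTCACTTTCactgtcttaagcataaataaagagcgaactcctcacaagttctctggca
Igtp, chr11:58199436-58199555, plus strand: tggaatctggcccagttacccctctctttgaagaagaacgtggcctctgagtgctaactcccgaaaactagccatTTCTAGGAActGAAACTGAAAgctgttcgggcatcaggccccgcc
Irgm2, chr11:58214857-58214976, plus strand: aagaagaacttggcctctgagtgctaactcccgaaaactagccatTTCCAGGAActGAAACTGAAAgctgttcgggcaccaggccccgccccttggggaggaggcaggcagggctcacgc
Tgtp1, chr11:48992247-48992366, minus strand: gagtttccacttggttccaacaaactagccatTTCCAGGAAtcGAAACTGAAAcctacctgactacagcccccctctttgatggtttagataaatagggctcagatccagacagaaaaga
Ifitm2, chr7:140955962-140956081, minus strand: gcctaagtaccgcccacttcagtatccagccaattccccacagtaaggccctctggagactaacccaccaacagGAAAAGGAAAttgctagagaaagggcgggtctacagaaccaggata

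In Isg15, 3 overlapping ISRE cores form the single run in capitals. In Igtp, Irgm2 and Tgtp1 a GAS is followed by an ISRE core whose first base lies 11 bases after that of the GAS. These 3 promoters are related in sequence, with Igtp and Irgm2 sharing an unbroken run of 38 bases and Irgm2 and Tgtp1 one of 20, so the shared arrangement is not seen in 3 independent promoters. A match of letters is not evidence of a bound site.

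Of the ligands, receptors and signalling genes upstream of the members, the ligand Ifng differed most. It read -2.33 and -0.90 in wild-type against -3.02 and -2.87 on the arrays labelled S1pr2-/- (difference -1.33, SE 0.566, adjusted p = 0.555 in limma). Wild-type replicate 2 was far above the other 3 arrays, the same array on which the GTPases were highest. The other 6 ligand probes tested, 4 of them Ifna genes, differed by -0.27 to 0.24, and Ifnb1, Ifna4 and Ifne were too dim to be tested. Of the 6 receptor chains, none was lower on both arrays labelled S1pr2-/- (21.9% of all genes), and 3 were higher on both (22.2%). These differed by 0.14 for Ifnar2, 0.10 for Ifngr2 and 0.21 for Il10rb, the one at an unadjusted p under 0.05 in limma. Ifnar1 differed by -0.01 (SE 0.173) and Ifngr1 by -0.02 (SE 0.076). Of 8 genes of upstream nucleic acid sensing, 1 lay lower (21.9% of all genes) and 3 higher (22.2%) on both arrays labelled S1pr2-/-. Tlr3, a receptor for double-stranded RNA, was among the higher ones at 0.30 (SE 0.098), with an unadjusted p under 0.05 in limma.

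Of the 9 kinases and transcription factors, 8 were lower on average (49.4% of all genes) and 7 lay lower on both arrays labelled S1pr2-/- (21.9%). At an unadjusted p under 0.05 in limma 3 of them were lower (5.95% of all genes), and 0 passed after adjustment. Irf1, the factor that interferon-gamma induces, read 3.27 and 3.56 against 2.99 and 2.94 (difference -0.45, SE 0.127). Stat2 differed by -0.33 (SE 0.074) and Irf9 by -0.21 (SE 0.058), both partners in the type I complex. Irf7, which amplifies type I interferon, differed by -0.36 (SE 0.208). Irf8, a factor of the macrophage lineage, was the one that was higher on average, by 0.21 (SE 0.149), with overlapping groups. Among the negative regulators, Socs1, an induced inhibitor of Jak kinases, read 0.62 and 1.59 against -0.51 and -0.75 (difference -1.74, SE 0.392, adjusted p = 0.509 in limma).

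**Figure D5:**
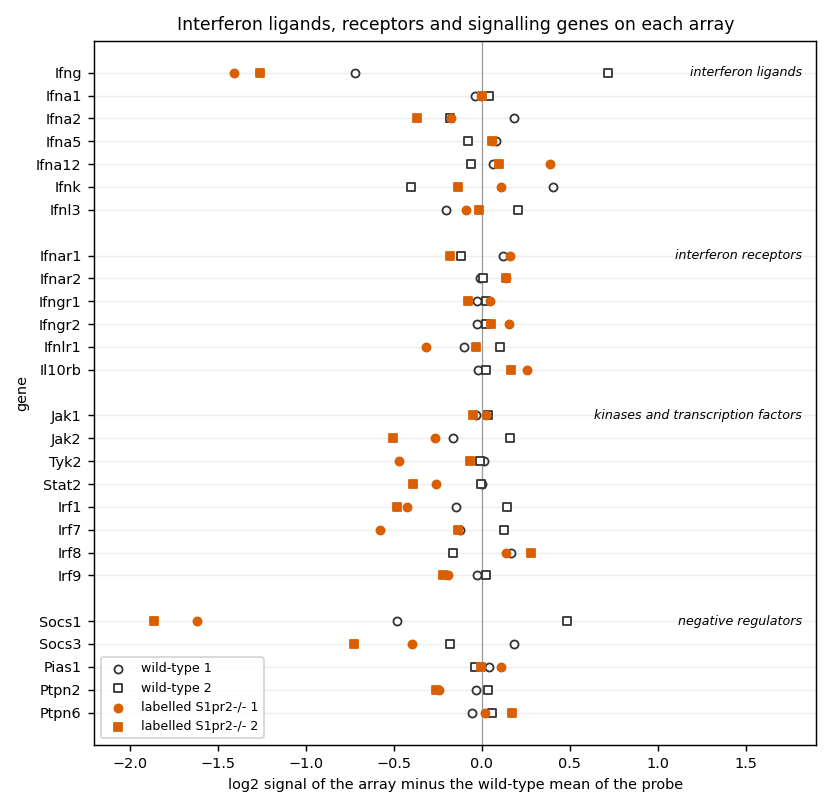
Log2 signal of interferon ligands, receptors, signalling genes and negative regulators on each array minus the probe's wild-type mean (horizontal axis), with open symbols for wild-type and filled symbols for arrays labelled S1pr2-/-. Ifng and Socs1 lie farthest to the left on the arrays labelled S1pr2-/- and are highest on wild-type replicate 2, while the receptors lie near 0.

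Other known interferon targets outside the member list were read from the same fit. Of 34 further type I-like targets, Stat2 and Irf7 among them, 29 were lower on average (49.4% of all genes) and 9 of these had an unadjusted p under 0.05 in limma (5.95% of all genes), with 0 in the higher direction and a median difference of -0.15. The largest lower difference of that list was that of Ifi47, which is itself an immunity-related GTPase, a family placed in the interferon-gamma class above. Ifi47 read 2.87 and 3.40 in wild-type against 2.47 and 2.39 on the others (difference -0.71, SE 0.215). Of 17 further interferon-gamma targets, 14 were lower on average (49.4% of all genes), 2 of them at an unadjusted p under 0.05 (5.95%), with a median of -0.13. The spread within that list was wide. Nlrc5, which drives class I antigen presentation genes, read 1.83 and 1.95 against 1.35 and 1.05 (difference -0.69, SE 0.136). The chemokine Cxcl10 differed by -0.59 (SE 0.206). Ido1 was too dim to be tested. Nos2, the inducible nitric oxide synthase, read -3.24 and -1.50 against -3.56 and -3.30 (difference -1.06, SE 0.687), again with wild-type replicate 2 far above the rest. Of the class II genes, Cd74, H2-Aa and H2-Eb1 overlapped between the groups, with differences of -0.08 (SE 0.117), 0.025 (SE 0.074) and -0.13 (SE 0.112). H2-Ab1 lay lower on both arrays labelled S1pr2-/- (difference -0.16, SE 0.069), as did Ciita (-0.58, SE 0.254). Cxcl9 differed by 0.19 (SE 0.096). No gene of the pathway lists passed an adjusted p of 0.05 in limma, and of the 82 tested outside the member list 15 were lower (5.95% of all genes) and 2, Il10rb and Tlr3, higher (4.55%) at an unadjusted p under 0.05.

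Markers of other cells that can be present in BALF also differed between arrays. A summed level follows the brightest markers of its list and is not an amount of cells. T cell markers were lower on average on the arrays labelled S1pr2-/- in 10 of 10 (49.4% of all genes). Their summed level was 20.3 and 21.8 on the wild-type arrays against 18.6 and 13.4. The summed level of NK cell markers was highest on wild-type replicate 2, at 7.63 and 14.4 against 9.54 and 7.24. All 9 read higher there than on wild-type replicate 1 (44.3% of all genes), but Klrb1c, Klrk1 and Klrd1 were highest on replicate 1 labelled S1pr2-/-. Plasmacytoid dendritic cell markers, with Siglech by far the brightest, summed to 69.2 and 65.8 against 58.6 and 60.7. Neutrophil markers, with Csf3r the brightest, summed to 90.9 and 101.5 against 75.1 and 68.7. Of the 10 tested, 7 were lower on average (49.4% of all genes), 3 of them at an unadjusted p under 0.05 in limma (5.95%). On both arrays labelled S1pr2-/- 5 lay lower (21.9% of all genes) and 1 higher (22.2%). Lower past 1.5-fold (4% of all genes) were Retnlg (-4.81), S100a9 (-1.46) and Cxcr2 (-0.59), beside a list median of -0.19. Monocyte-derived macrophage markers, with Csf1r the brightest, summed to 159.8 and 146.0 against 173.6 and 143.8. The eosinophil marker Prg3 and the neutrophil marker Ngp were too dim to be tested. B cell markers summed to 1.86 and 0.637 against 0.825 and 0.563, and conventional dendritic cell markers to 10.9 and 13.6 against 9.65 and 9.42. Lung epithelial markers, with Scgb1a1 the brightest, summed to 26.9 and 29.4 against 21.6 and 37.5. Of the 7 tested, 6 were lower on average (49.4% of all genes), with a median difference of -0.34. Of these 7, 5 lay lower on both arrays labelled S1pr2-/- (21.9% of all genes). The part of these cells in the differences of the interferon-stimulated genes was not tested.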

How the data were processed

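RNA of BALF cells was hybridized to one-color Agilent mouse arrays. The authors deposited the scanner output, in which Agilent Feature Extraction (version 10.7.3.1 per the labels, 11.0.1.1 per the file headers) had corrected the intensity of each spot for background, and flags for spots that were outliers or not well above background. They also deposited a table of their own log2 values, used as an alternative. For each array, processed intensity was scaled to the 75th percentile of its non-control spots, floored at 0.01 and log2 transformed. Flagged spots (115 to 273 per array) were left out, 0 were saturated, and spots of a probe were averaged. The 27159 probes well above background on both arrays of a genotype were tested with limma 3.58.1 in R 4.3.3 (lmFit, eBayes) as S1pr2-/- minus wild-type, with Benjamini-Hochberg adjustment over all of them. Shares of all genes use 15412 genes, each by its brightest probe. Accessions named 69.6% of 39429 probes through RefSeq.

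The member list, the other lists and the tests were drawn up with earlier results of these data known, although the rule for members uses no measured difference. Values of every array are given for members past 1.5-fold and for the member with the largest difference in each other role group. Those of Oas2, Gbp5, Iigp1, Ifitm2, Ifitm3 and Ifitm6 and the markers Klrb1c, Klrk1 and Klrd1 were chosen after their values were seen. So were the pathway genes Cd74, H2-Aa, H2-Ab1, H2-Eb1, Ciita, Irf8, Cxcl9, Ifnar2, Ifngr2, Il10rb, Tlr3, Oas1c and Oas1g. The markers Ear6, Gata1, Prg2, Siglech, Csf3r, Retnlg, S100a9, Cxcr2, Csf1r and Scgb1a1 were also named after their values were seen. Pathway genes were otherwise named from a list or when past 1.5-fold, and a gene of that list is not reported here. With 2 arrays per genotype, an exact two-sided permutation test cannot give a p below 0.333, and the p-values measure only the spread between these arrays. In simulated arrays of these 27159 probes, a log2 change of 2 was called in 76 of 100 changed probes and one of 1 in 25 of 100, at an adjusted p of 0.05, with 0 calls among unchanged probes. The simulated noise was independent between probes, and the spreads were shuffled among them, so a large change was not tied to a large spread. On the real arrays no gene was called, Prg2 at -5.32 included (SE 0.806, adjusted p = 0.509 in limma). The simulated shares therefore do not give the sensitivity of this comparison.

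Each choice was also replaced by another: normalization (quantile, cyclic loess, or a percentile taken only over detected probes), background correction (normexp on the median signal, offset 50), the authors' log2 table as input, the floor, the filter (none, or detection on every array), the outlier flags, the variance (trended), the test (the t-test of the methods, or a block for replicate number), the arrays (each left out) and the probe of a gene.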

Additional observations from a re-analysis of the deposited data

How the results depend on the processing

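No member passed an adjusted p of 0.05 under any alternative, the methods' t-test included. Of 117 values of classes and counts under alternatives, 103 kept their direction, call or size. The count of 5 lower members past 1.5-fold at an unadjusted p under 0.05 became 3 with quantile normalization, 2 with the percentile over detected probes, 2 without the filter and 1 with the methods' t-test, and lay between 2 and 12 with each array left out, while the higher count lay between 0 and 1. The correlation of same-numbered deviations was 0.187 (2 pairs), which cannot tell whether replicate numbers pair the arrays, since each genotype has only 2 arrays. The fit with the replicate block gave counts of 5 lower and 0 higher. With each array left out, the type I-like median lay between -0.38 and -0.27, the GTPase median between -0.55 and -0.22 and their difference between -0.051 and 0.16, the reversal being without wild-type replicate 2 (-0.051). The type I-like median was -0.29 over second probes. Normexp moved the median of all probes to 0.19. Of 688 member values, 15 of 6 members changed sign: Ifit2 with normexp (0.033), Dhx58 with cyclic loess (-0.0054), normexp (-0.032), without wild-type replicate 2 (-0.082) and without S1pr2-/- replicate 1 (-0.021), Ifi204 with normexp (-0.072) and without those arrays (-0.13 and -0.12, against 0.20 without wild-type replicate 1), Sp100 with quantile normalization (0.055), normexp (0.31) and without wild-type replicate 2 (0.10), Tgtp1 with normexp (0.44), and Ifitm6 with normexp (0.67), without wild-type replicate 2 (0.24) and without S1pr2-/- replicate 2 (0.55, against -0.79 without S1pr2-/- replicate 1). The cause was not tested. With 4 arrays, the 95% intervals of most members include 0.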
